A study of Mus musculus with 3 samples.

Results

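The genes described here are 7 peptide signalling genes, chosen by name among the 25562 genes counted in cultured inhibitory neurons: Pthlh, Nppc, Penk1 (current symbol Penk), Cartpt, Nts, Adcyap1 and Npbwr1. The first 6 encode peptide precursors and Npbwr1 encodes a peptide receptor. The working name of the set was late-rising peptide genes, and it was drawn up with the exonic and intronic reads of the same libraries in view, so the levels below are a description and no test was made of them. By the size rule given below, 5 of the 7 were higher at 6 h than at 0 h, beside 4.92% of all genes compared. Of these, 3 (Pthlh, Npbwr1 and Cartpt) were also higher at 6 h than at 1 h, beside 4.17%. The counts only describe which genes the name applies to, since the name came from the same reads. Nts had few reads at every time and Adcyap1 had no exonic read at any time.

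The cells were neurons of the medial ganglionic eminence (MGE), an embryonic structure that produces many cortical inhibitory interneurons, dissected from embryonic day 14 mice of the C57Bl/6 background and kept for 10 days in vitro. From day 9 every culture was silenced overnight with the sodium channel blocker tetrodotoxin (TTX) and the NMDA receptor antagonist AP-5, and 55 mM extracellular KCl then depolarized the membrane for 0, 1 or 6 h. The unstimulated 0 h cultures therefore also carried both blockers, and no library of cultures without them was analysed here. The labels name 1 wild-type library for each of the 3 times and do not give the number of embryos or cultures behind it. The study's purpose was to find genes induced by activity in inhibitory neurons.

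Strand-specific sequencing of ribosome-depleted total RNA gave 8996897, 8549377 and 8579378 uniquely mapped reads at 0, 1 and 6 h. Of these, 2189394, 2457167 and 2480579 lay in exons on the sense strand. At least 20 exonic reads in 1 library were reached by 10311 genes. Since each time has 1 library, variation among cultures is unknown and no p-value is reported. Each ratio below compares 2 libraries after scaling, and its 95% interval, an exact Clopper-Pearson interval on the split of the reads between them, covers counting error only. PCR copies were not marked in these libraries, so reads are not strictly independent molecules. Uniquely mapped reads numbered 2.45, 2.60 and 2.33 per distinct position at 0, 1 and 6 h, and the share of PCR copies among them is unknown. The intervals may therefore be too narrow. Markers of MGE-derived interneurons were present throughout: 14 of 15 listed genes were found and all 14 were measured, with a summed level of 7770, 7478 and 9530 scaled reads per 1000000 (RPM). Reln had the most reads of the 14 at each time, with 8025, 8795 and 9141. Astrocyte and radial glia markers, 10 of 10 measured, summed to 2441, 2549 and 3072 RPM.

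Peptide precursors enter the secretory pathway, are cut by prohormone convertases and stored in dense-core vesicles, and the released peptides act mostly on G-protein-coupled receptors of nearby cells. Pthlh encodes parathyroid hormone-related protein, a ligand of the parathyroid hormone receptor. Nppc encodes C-type natriuretic peptide, which acts through a receptor guanylyl cyclase. Penk1 encodes proenkephalin, the source of the opioid enkephalins, and Cartpt the cocaine- and amphetamine-regulated transcript peptides. Nts encodes neurotensin, Adcyap1 the peptide PACAP, and Npbwr1 a receptor for neuropeptides B and W. In the cortex, enkephalin and several other neuropeptides are known from subsets of GABAergic neurons.

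Of the 7 genes, 5 (Pthlh, Cartpt, Nppc, Nts and Adcyap1) were matched in the RefSeq promoter table of build GRCm38.p6. Penk1 and Npbwr1 were not matched. The windows reach from 250 bases before a transcription start to 50 bases after it, and bases are numbered backwards from the start as -1, -2 and so on. The stretches below are shown because they hold, or in the case of Pthlh lack, short sequences known from activity-regulated genes, and all are read 5′ to 3′ on the gene's strand. Capitals mark the full cyclic AMP response element TGACGTCA, its core TGACG on either strand, the AP-1 site TGANTCA, the variant TGACATCA, and the TATA box TATAAA. The search for TGACATCA was added after the sequences had been read. The 250 bases upstream of Pthlh (chr6:147264014-147264263, minus strand) had none of these on either strand.
Pthlh, bases -250 to -1: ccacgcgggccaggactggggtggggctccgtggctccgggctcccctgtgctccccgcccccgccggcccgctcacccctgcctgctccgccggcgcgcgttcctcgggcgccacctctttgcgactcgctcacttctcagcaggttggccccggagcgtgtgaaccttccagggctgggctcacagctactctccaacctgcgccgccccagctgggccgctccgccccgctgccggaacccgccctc
The full element lies at base -112 of Cartpt (chr13:99900754-99900833, minus strand), and it contains the core on both strands.
Cartpt, bases -150 to -71: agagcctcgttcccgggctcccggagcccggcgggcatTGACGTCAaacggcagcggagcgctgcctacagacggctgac
Nppc (chr1:86670594-86670673, minus strand) has the variant at base -51 and a TATA box at base -29.
Nppc, bases -100 to -21: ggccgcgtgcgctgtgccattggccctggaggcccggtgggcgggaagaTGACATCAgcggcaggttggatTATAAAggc
Nts (chr10:102490559-102490638 and chr10:102490449-102490508, minus strand) has an AP-1 site, written TGAGTCA, at base -207, the core on the other strand at base -166 and the variant at base -67.
Nts, bases -220 to -141: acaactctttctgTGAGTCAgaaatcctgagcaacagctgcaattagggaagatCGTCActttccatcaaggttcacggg
Nts, bases -90 to -31: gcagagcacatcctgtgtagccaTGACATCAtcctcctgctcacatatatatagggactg
Adcyap1 (chr17:93198887-93198966, plus strand) has the core at base -91 of the first of its 2 listed starts.
Adcyap1, bases -130 to -51: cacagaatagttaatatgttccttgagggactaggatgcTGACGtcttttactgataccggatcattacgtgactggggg

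Across all 32851 windows of the table, the full element occurred in 1.79% and, among the 5 matched genes, in Cartpt. The core occurred in 20.8% of windows and in 3 of the 5 genes (Cartpt, Nts and Adcyap1). The AP-1 site occurred in 7.81% of windows and in Nts, and the variant in 3.62% and in Nppc and Nts. TATA boxes occurred in 13.6% and in Nppc and the second window of Adcyap1. The sequence TGCGTCA, described for an enhancer of the enkephalin gene, and the Egr site GCGTGGGCG occurred in 2.12% and 0.612% of windows and in 0 of the 5 matched genes, which do not include Penk1. A match describes letters only, no match says only that the letters are not in this window, and neither bears on whether a factor bound there.

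Pthlh dominated the set after 6 h. The gene lies on chromosome 6 from 147200622 to 147212723 (mm9, minus strand) in 5 exons. It had 12 exonic reads at 0 h, 8 at 1 h and 176 at 6 h. The level was thus low in both early libraries and high in the third. The ratio of 6 h to 0 h was 13.9 (interval 7.74 to 27.4), rank 19 among 10095 genes ordered by ratio, and the ratio of 6 h to 1 h was 23.3 (11.6 to 54.9), rank 3 among 10137. At 1 h the ratio to 0 h was 0.595 (0.211 to 1.58), so no difference was detectable at this depth. Per length, Pthlh stood at 3.36, 2.0 and 46.6 scaled reads per kilobase and 1000000 reads (RPKM). That placed it above 7.81%, 3.25% and 83.1% of the 10311 measured genes. In these bulk cultures, more cells with Pthlh RNA and more Pthlh RNA per cell cannot be told apart.

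Npbwr1 had the second largest number of reads at 6 h and a similar time course. It is a gene of 1 exon on chromosome 1 (5903788 to 5907479, minus strand) and had 4, 6 and 46 exonic reads at 0, 1 and 6 h. Only the 6 h library stood above a handful of reads. The ratio was 10.9 (3.97 to 41.6) for 6 h to 0 h, 8.13 (3.46 to 23.3) for 6 h to 1 h, and 1.34 (0.317 to 6.45) for 1 h to 0 h. Its level per length nonetheless remained low, at 0.483, 0.647 and 5.26 RPKM, above 18.3% of measured genes at 6 h.

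Cartpt was undetected before KCl. It lies on chromosome 13 (100668439 to 100670638, minus strand) in 3 exons and had 0, 5 and 21 exonic reads. Each library had more reads than the one before it, though the 5 reads at 1 h were few. The interval for 1 h to 0 h starts at 0.817 and so includes 1. A count of 0 allows up to 3 reads, and against that floor Cartpt was at least 6.62-fold higher at 6 h, a figure that leaves out the counting error of the 21 reads. The exact interval for the split of 21 and 0 reads starts at 4.92. The 6 h library also exceeded the 1 h library, by 4.45-fold (1.63 to 15.1). The upstream stretch of Cartpt shown above holds the full cyclic AMP response element, and any link between that element and these reads was not tested.

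Nppc and Penk1 had reads in every library and smaller ratios. Nppc, on chromosome 1 (88562866 to 88567147, minus strand), had 9, 13 and 23 exonic reads, and its 6 h level was 2.42-fold (1.08 to 5.93) that of 0 h. The 1 h library lay between the other 2, with ratios of 1.29 (0.509 to 3.41) to 0 h and 1.88 (0.911 to 4.03) from 1 h to 6 h, both intervals including 1. Penk1, on chromosome 4 (4060683 to 4065592, minus strand), had 17, 31 and 37 reads. Its 6 h level was 2.06-fold (1.13 to 3.90) that of 0 h, but most of the gain in reads was already there at 1 h. From 1 h to 6 h the ratio was 1.27 (0.764 to 2.11), and from 0 h to 1 h 1.63 (0.873 to 3.13). For Penk1 the data therefore do not place the increase late. The 6 h to 0 h intervals of Nppc and Penk1 both start close to 1, and repeated reads could make them too narrow. Penk1 overlaps 1 gene on the opposite strand, whose reads were counted apart.

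Nts and Adcyap1 were not called higher at any time. Nts, on chromosome 10 (101944390 to 101953052, minus strand), had 4, 7 and 5 exonic reads, and the 6 h to 0 h ratio of 1.18 (0.254 to 5.96) spans both a fall and a rise. Adcyap1, on chromosome 17 (93598762 to 93604831, plus strand), had 0 exonic reads in each library. A count of 0 allows up to 3 reads, which is 1.34, 1.19 and 1.27 RPM at 0, 1 and 6 h.

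**Figure D1:**
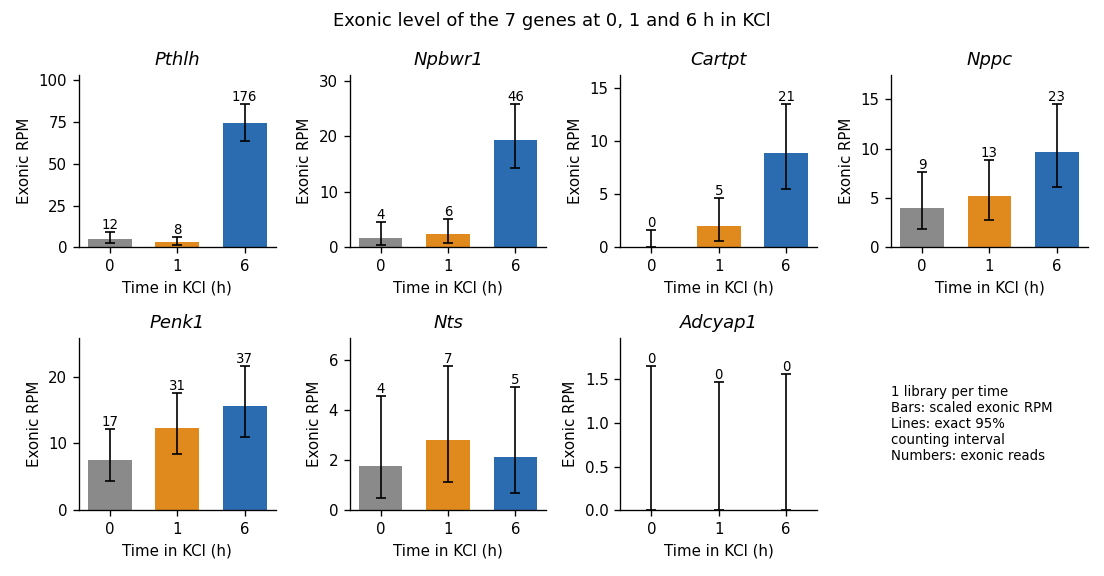
Exonic level of each of the 7 genes in RPM (vertical axis, a separate scale in each panel) at 0, 1 and 6 h of KCl, 1 library per time, with exact 95% counting intervals as bars and exonic read counts as numbers. Pthlh goes from 12 and 8 reads to 176 at 6 h, while Adcyap1 has 0 reads throughout.

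By the size rule used across the whole table (a ratio of at least 2 or at most 0.5, an interval that excludes 1, and a minimum of 20 exonic reads in either library), 5 of the 7 genes were higher and 0 lower at 6 h than at 0 h. Of all 10095 genes compared, 4.92% were higher and 5.42% lower. The 5 were Pthlh, Npbwr1, Cartpt, Nppc and Penk1, and Nts and Adcyap1 fell below the read minimum. Because the set was chosen on this contrast, nothing is read from that difference. Between 1 h and 6 h, 3 of the 7 were higher (Pthlh, Npbwr1 and Cartpt) and 0 lower, where 4.17% of 10137 genes were higher and 4.63% lower. Between 0 h and 1 h, 0 of the 7 were higher or lower and only Penk1 reached the read minimum, where 1.58% of 10093 genes were higher and 1.43% lower. Under scaling by total exonic reads the 6 h to 0 h ratio of Penk1 was 1.92, below the size rule, and 4 genes remained.

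**Figure D2:**
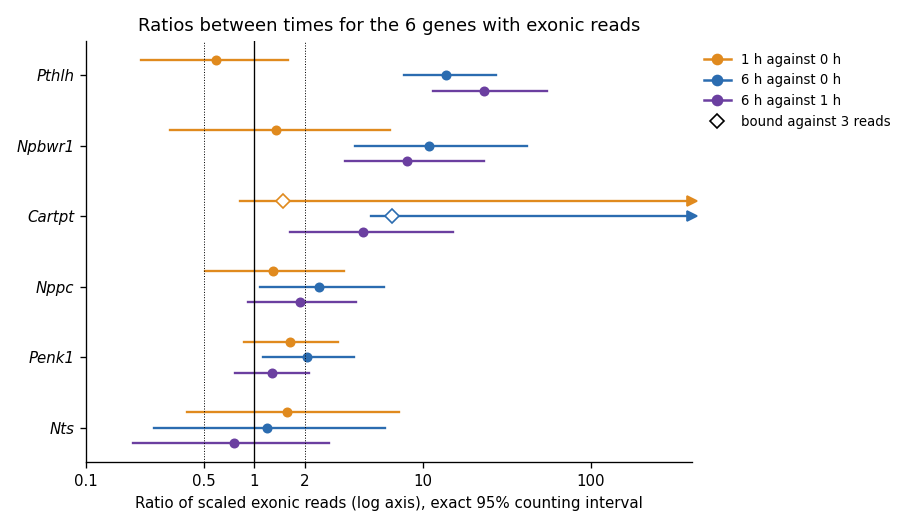
Ratios of scaled exonic reads for the 6 peptide genes with exonic reads (log axis) in the 3 pairwise comparisons of times, with exact 95% counting intervals; open diamonds are bounds of Cartpt against 3 reads, and arrows mark intervals with no upper limit. Pthlh, Npbwr1 and Cartpt lie above 2 for 6 h against both earlier times, whereas the intervals for 1 h against 0 h include 1.

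Pthlh stood above all the other genes of the set only at 6 h. At 0 h Penk1 had the highest value, 5.37 RPKM (3.13 to 8.60), followed by Nppc at 3.85 (1.76 to 7.31) and Pthlh at 3.36 (1.74 to 5.87). The intervals of these genes overlap, so their order at 0 h was not resolved. At 6 h Pthlh led at 46.6 RPKM (40.0 to 54.0), an interval that overlaps none of the others. Penk1 at 11.1 (7.79 to 15.2), Cartpt at 10.1 (6.28 to 15.5) and Nppc at 9.31 (from 5.90) followed and could not be ranked among themselves at this depth. Npbwr1 at 5.26 (3.85 to 7.01) overlapped Cartpt and Nppc but not Penk1. Nts stood at 1.79 (0.581 to 4.17). The 7 genes together had 46, 70 and 308 exonic reads, of which Pthlh made up 26.1%, 11.4% and 57.1%. Even summed, they reached 20.5, 27.9 and 130.0 RPM, far below the sum of the 14 interneuron markers given above. Single markers of that list ranged at 6 h from 56 reads for Nkx2-1 to 9141 for Reln, and the 176 reads of Pthlh lay within that range.

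Reads on Pthlh covered every exon at 6 h. From the 5′ end its 5 exons had 7, 18, 13, 48 and 78 reads at 6 h, against 1, 1, 1, 5 and 2 at 0 h. Coverage was heaviest toward the 3′ end: exon 5, which is 30.0% of the exonic length, held 47.6% of the reads placed in exons at 6 h. The 3′ untranslated region held 44.3% of Pthlh's exonic reads at 6 h (interval 36.8 to 52.0) and 29.4% of its exonic length. At 0 h that share was 16.7% (2.09 to 48.4), from 2 of 12 reads, and the overlapping intervals leave no detectable difference between the times. Splice-junction reads on Pthlh numbered 2, 0 and 12. The 12 at 6 h joined exons 2 and 3 (3 reads), 3 and 4 (3 reads) and 4 and 5 (6 reads), which shows spliced Pthlh RNA in that library.

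For Npbwr1, whose 3′ untranslated region is 70.3% of its exonic length, that region held 76.1% of reads at 6 h (61.2 to 87.4). Most reads on this gene therefore fell outside the coding sequence, and the interval includes the region's share of the length. Cartpt exons 1 to 3 had 1, 4 and 14 reads at 6 h. Nppc exons 1 to 3 had 4, 0 and 3 reads at 0 h, 2, 9 and 1 at 1 h and 11, 6 and 3 at 6 h. The 6 h to 0 h intervals of exon 1 (0.771 to 11.2) and exon 3 (0.127 to 7.06) include 1, while that of exon 2 starts at 1.11. At these counts the split of the added reads among exons is uncertain. On Penk1, exon 2 went from 13 to 27 and 32 reads, a 6 h to 0 h ratio of 2.33 (1.19 to 4.83), while exon 1 had 4, 4 and 5.

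**Figure D3:**
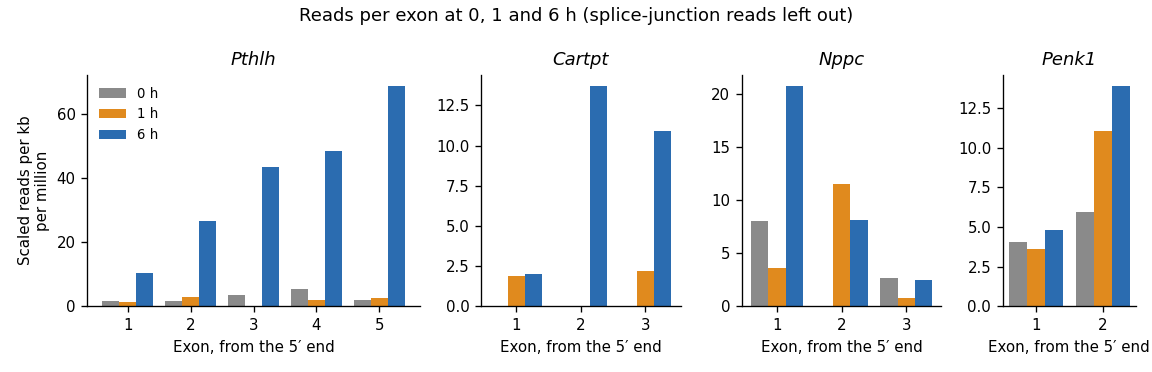
Reads in each exon of Pthlh, Cartpt, Nppc and Penk1, numbered from the 5′ end, at 0, 1 and 6 h, in RPKM; each panel has its own vertical scale. Pthlh exon 5, with 78 reads at 6 h, is the tallest bar in its panel, and Penk1 exon 2 is already higher at 1 h (27 reads) than at 0 h (13 reads).

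Intronic reads, which come from unspliced RNA, were few. Pthlh had 2, 5 and 11 at 0, 1 and 6 h, a 6 h to 0 h ratio of 5.20 (1.14 to 48.3). All of them lay in the 2 longest introns, with 2, 5 and 6 reads in intron 3 and 0, 0 and 5 in intron 4. Pthlh's intronic reads at 1 h exceeded those at 0 h by 2.23-fold with an interval of 0.365 to 23.4, while its exonic reads at 1 h did not exceed those at 0 h. Neither difference was detectable at this depth. Cartpt and Nts each had 0, 0 and 3 intronic reads, Nppc had 2, 3 and 2 and Penk1 1, 3 and 2. Adcyap1 had 2 intronic reads at 0 h and 0 later, and Npbwr1 has no intron. Over the 7 genes the intronic reads summed to 7, 11 and 21, and the 6 h to 0 h ratio of that sum was 2.84 (1.16 to 7.90). Pthlh supplied 11 of the 21 reads at 6 h.

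Strand and neighbouring sequence added little signal. Antisense exonic reads numbered 3 on Nppc at 0 h, 1 on Penk1 at 1 h and 0 on the other 5 genes at every time. The 500 bases downstream held 0 reads for each of the 7 genes. None of them overlaps another gene on its own strand.

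Genes with a pattern like that of each peptide gene were ranked by the Euclidean distance between their 2 log2 ratios (1 h and 6 h, each against 0 h), over 8037 genes with at least 50 exonic reads in 1 library. This likeness rests on 3 libraries. Nearest to Pthlh were Cacng5, with 23, 22 and 219 reads and a distance of 0.77, and Rerg, with 7, 8 and 80 reads and a distance of 0.84. E530001K10Rik and Calcrl followed at distances of 1.09 and 1.21. Cacng5 encodes an AMPA receptor auxiliary subunit of the TARP family, and Calcrl the receptor subunit shared by calcitonin gene-related peptide and adrenomedullin. Calcrl, with 5, 8 and 66 reads, was also near Npbwr1, at a distance of 0.25. Cartpt, placed by pseudocount because of its 0 reads, was nearest to the granin-family gene Vgf (3, 73 and 179 reads), at 0.97. Nppc lay within 0.05 of Myadm (51, 73 and 123 reads) and Penk1 within 0.05 of Crip2 (109, 195 and 242 reads).

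**Figure D4:**
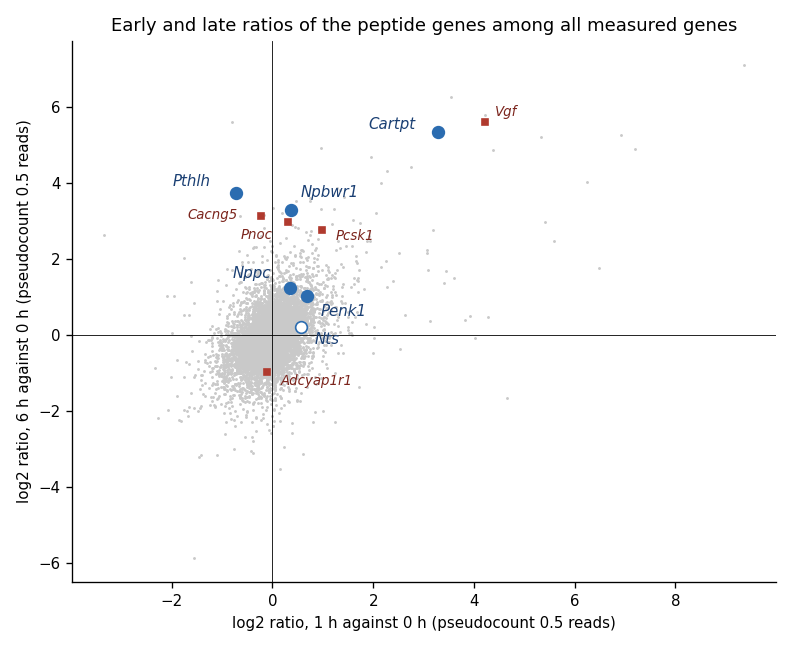
Log2 ratio of 6 h to 0 h against log2 ratio of 1 h to 0 h, with a pseudocount of 0.5 reads, for genes with at least 20 exonic reads in 1 library (grey), the peptide genes (blue) and other genes named in the text (red squares). Nts, drawn open, is below the read minimum, the position of Cartpt depends on the pseudocount because it had 0 reads at 0 h, and Pthlh lies left of 0 on the horizontal axis with a 6 h value of 3.74.

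No receptor or partner ligand of these peptides was called higher at 6 h. Of 20 listed genes, 5 were measured at 6 h against 0 h. None of the 5 met the size rule in either direction, where 4.92% of all genes compared were higher and 5.42% lower. With shares that small, nothing is read from the absence of calls among 5 genes. Their median log2 ratio was -0.46, beside 0.00 over all genes. That median is the value of Oprl1, whose ligand nociceptin comes from Pnoc, a gene outside the set. Another 8 of the 20 listed genes were at or under 3 reads in every library. The PACAP receptor gene Adcyap1r1 had 1018, 1059 and 550 reads, a 6 h to 0 h ratio of 0.511 (0.460 to 0.567), just short of the 2-fold rule and past it under scaling by total exonic reads. Its reads at 6 h were thus fewer than at either earlier time. Npr2, the guanylyl cyclase receptor of the Nppc product, had 29, 27 and 18 reads, and the interval of its ratio, 0.587 (0.307 to 1.09), includes 1. Npr3, the clearance receptor that also binds the Nppc product, went the other way, with 223, 271 and 413 reads and a ratio of 1.75 (1.48 to 2.07). The remaining measured genes of the list were Sort1, a neurotensin-binding sorting receptor, at 1.2 (1.08 to 1.35), and the nociceptin receptor gene Oprl1, at 0.727 (0.596 to 0.887).

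The main receptors for the Pthlh and Penk1 products were near or under the floor of 3 reads. Pth1r, the receptor for the Pthlh product, had 3, 0 and 0 reads. The opioid receptor genes Oprd1, Oprm1 and Oprk1 had at most 5 reads in any library: 5, 4 and 3 for Oprd1, 3, 5 and 3 for Oprm1, and 2, 0 and 0 for Oprk1. Npb and Npw, which encode the ligands of the Npbwr1 receptor, had 0 reads at each time. The neurotensin receptor genes Ntsr1 and Ntsr2 stood above that floor, with 13, 24 and 13 and 6, 5 and 10 reads. These cultures thus had few reads for the partners of Pthlh, Penk1 and Npbwr1, which at this depth does not show their absence.

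Of 12 enzymes and helpers of prohormone processing, all were measured and 1 was higher and 0 lower by the size rule at 6 h against 0 h, where 4.92% of all genes compared were higher and 5.42% lower. The list median log2 ratio was 0.38, beside 0.00 over all genes. The higher gene was Pcsk1, a prohormone convertase, with 28, 63 and 204 reads and ratios of 2.01 (1.27 to 3.25) at 1 h and 6.89 (4.63 to 10.6) at 6 h. Pcsk1 was thus already higher at 1 h by the rule, where Pthlh had 8 reads and was below the read minimum. Pcsk2, a second convertase of secretory granules, had 96, 89 and 62 reads and a ratio of 0.611 (0.436 to 0.849). The other convertase genes had ratios of 1.79 (1.00 to 3.31) for Pcsk6, 1.47 (0.90 to 2.43) for Pcsk5 and 0.875 (0.670 to 1.14) for Furin. Pam, which amidates peptides, had 576, 505 and 1068 reads, a ratio of 1.75 (1.58 to 1.94). Cpe, the carboxypeptidase that trims cut peptides, had 1613, 1595 and 1840 reads and a ratio of 1.08 (1.01 to 1.15).

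Among 47 other peptide precursor genes, 46 were found and 27 of these were at or under 3 reads in every library. Of 9 measured at 6 h against 0 h, 3 were higher and 0 lower, with a median log2 ratio of 0.67, beside the same shares and median over all genes as for the enzymes. In this comparison Vgf, Prok2 and Tac1 reached the read minimum only through the 6 h library. The count and the median therefore lean toward higher genes, and nothing is read from their distance to all genes. Vgf had a ratio of 56.4 (19.0 to 276) from 3 reads at 0 h, and it was also the 1 gene of 8 measured that was higher at 1 h. Prok2, which encodes prokineticin, had 3, 4 and 34 reads, and Pnoc, the nociceptin precursor gene, 41, 57 and 341. Their 6 h ratios were 10.7 (3.37 to 54.5) and 7.87 (5.68 to 11.2). At 1 h neither differed detectably from 0 h, with ratios of 1.19 (0.201 to 8.12) for Prok2 and 1.24 (0.816 to 1.90) for Pnoc.

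**Figure D5:**
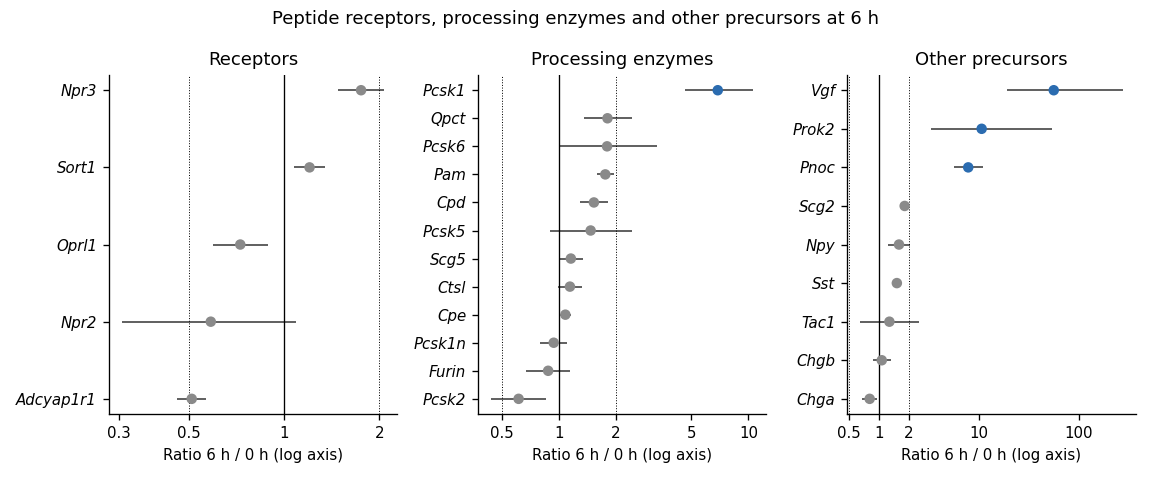
Ratio of 6 h to 0 h (log axes) with exact 95% counting intervals for the measured receptors, processing enzymes and other peptide precursors; blue marks genes that met the size rule and dotted lines mark 0.5 and 2. Pcsk1 is the 1 enzyme in blue, Vgf, Prok2 and Pnoc are the 3 precursors, and no receptor is in blue.

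Markers of other cell types were set beside the peptide genes, since the cultures hold more than 1 cell type. The interneuron sum at 6 h was above both earlier values and so was the astrocyte sum, as given above, but not every gene in them. Among the interneuron markers Gad1 had 2787, 3457 and 5361 reads, while Lhx6 had 838, 645 and 496 and Sox6 763, 671 and 573. Among the astrocyte and radial glia markers Vim had 672, 868 and 1491, while Gfap had 61, 36 and 41 and Gja1 249, 178 and 201. Excitatory neuron markers (2 of 10 measured, Cux2 and Camk2a, with 6 at or under 3 reads) summed to 368, 305 and 313 RPM, and Slc17a7, Slc17a6, Neurod2 and Emx1 had at most 1 read in any library. Oligodendrocyte lineage markers (6 of 9) summed to 167, 174 and 198. Striatal and cholinergic markers (3 of 10, with 2 at or under 3 reads) summed to 359, 350 and 384 RPM, most of it from Bcl11b with 697, 707 and 790 reads, and Chat had 0 reads throughout. Microglia markers (0 of 6 measured, 5 of them at or under 3 reads) summed to 1.78, 3.58 and 4.22 RPM, and endothelial, mural and meningeal markers (1 of 10, with 7 at or under 3 reads) to 14.7, 12.3 and 13.9. Dividing cell markers (5 of 6) summed to 123, 131 and 118. The part of these cell types in the reads of the peptide genes was not tested.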

How the data were processed

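Libraries were made from Trizol-extracted, ribosome-depleted and size-selected RNA by directional ligation and PCR, for ABi SOLiD sequencing, per the labels' protocols. Per the deposited counting logs and the submitters' processing notes, 35 bp reads mapping uniquely to mm9 or its splice junctions with at most 3 mismatches were counted by the authors. The aligner was not given in the sources used here. As for units, the authors' deposited read counts are raw whole numbers per gene, by strand and by exon, intron or 500 bp flank. Repeated reads were kept. Their coverage signal, scaled by the authors to 10000000 mapped reads, was an alternative only. Genes with near-identical copies are undercounted, since reads of several places were dropped.

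Counts were scaled by TMM factors (edgeR 4.0.16, R 4.3.3). RPM and RPKM are per effective library size. Ratios, exact 95% intervals and the calling rule were computed in Python 3.11.15 with scipy 1.17.1 and tested on simulated data. The simulated counts had counting error only, and changes were planted only in genes well covered in both libraries compared, unlike most members. The simulation therefore does not show how the rule performs for sparse genes, repeated reads or variation among cultures. Log2 values add 0.5 reads. List medians cover genes with 20 or more exonic reads in either library. Of 148 list and marker entries 146 were matched, 9 by identifier through RefSeq names. The members and the lists were chosen with earlier results of these data known. Named genes were the 7 members, list genes that met the size rule, certain receptors and enzymes by role, and the 5 genes nearest to Pthlh and 2 nearest to each other member with 20 reads, of which some are given and 1 is not reported here. Precursor proteins were not analysed here. Alternatives were other scalings, the coverage signal, read minimums of 0 and 50 and fold rules of 1.5 and 3.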

Additional observations from a re-analysis of the deposited data

How the results depend on the processing

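No paired analysis was possible because each time has 1 library and the labels carry no replicate numbers, so leaving out a library could not be run either. Over 64 ratios of the peptide genes under other scalings, 64 lay inside the interval given in the report and 0 reversed. Most of these scalings multiply every ratio of a comparison by the same factor, and the intervals are wide. The 64 are therefore not separate checks, and little else could have resulted. With a read minimum of 50, Pthlh alone was higher, so the count was 1 at 6 h against 0 h and 1 at 6 h against 1 h. With a 3-fold rule the count at 6 h against 0 h was 3 (Pthlh, Npbwr1 and Cartpt). Under scaling by total exonic reads it was 4, without Penk1, and 1 receptor gene, Adcyap1r1, became lower. Over all genes the scaling moved the split of calls. Higher genes were 52.5% of calls at 1 h and 85.1% when scaled to all mapped reads, which shifted the median log2 ratio of all genes to 0.25 (0.15 at 6 h against 0 h). At 6 h against 0 h the share was 47.6%, with 35.6% under total exonic reads and 64.5% under mapped reads, and at 6 h against 1 h it was 47.4%, with 35.4% and 36.0%. Changes in the rule moved the counts of all genes by over 1.5 times: at 6 h against 0 h from 497 higher and 547 lower to 1172 and 1334 with a 1.5-fold rule and 183 and 149 with a 3-fold rule. A minimum of 50 reads gave 235 lower. At 1 h the 159 higher and 144 lower became 296 and 52 under mapped reads and 82 and 51 with a minimum of 50. With no minimum, 257 were lower at 1 h. The 1.5-fold rule gave 380 and 535 at 1 h and 1002 and 1102 at 6 h against 1 h, and the 3-fold rule 59 and 19, and 143 and 118. At these depths Nts, Adcyap1 and most receptor genes were too sparse for a ratio to separate a change from none.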
